A study of Homo sapiens with 2 samples.

Results

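The genes described here are 10 genes of the mesenchymal transition and of cadherin adhesion, chosen by name from 53737 genes measured in SK-ES-1 cells. SK-ES-1 is a long-established line of Ewing sarcoma, a tumour of bone and soft tissue, and is labelled here as bone and as wild type in genotype. They are the transcription factors SNAI1, SNAI2, TWIST1, TWIST2, ZEB1 and ZEB2, the intermediate filament gene VIM, and the cadherins CDH1, CDH2 and CDH11. All 10 were found in both tables. The study compared 1 library of slow-cycling cells (SCCs) with 1 library of the other cells (non-SCCs) of the same line, to ask how the slowly dividing fraction of this tumour line differs in its transcripts. The labels name no treatment, time or other agent for either group, and how the SCCs were separated is not given in the sources used here. With 1 library per group there is no replicate error, no test is possible, and each contrast given describes 2 libraries only.

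In epithelial cells E-cadherin, the product of CDH1, joins neighbouring cells and is tied to the actin cytoskeleton through catenins. During the epithelial-mesenchymal transition, factors of the SNAI, ZEB and TWIST families repress CDH1 and other epithelial genes, while vimentin and the mesenchymal cadherins are made instead. The SNAI and ZEB zinc finger proteins bind E-boxes in DNA, with CAGGTG as a preferred form, and the TWIST proteins bind E-boxes as dimers with E proteins. The microRNAs of the miR-200 family silence ZEB1 and ZEB2, and the ZEB proteins in turn repress the miR-200 genes. Ewing sarcoma is not an epithelial tumour, and its driver, the fusion protein EWSR1-FLI1, is known to repress part of the mesenchymal programme.

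The mature miR-200 sequences are shown because ZEB1 and ZEB2 are their best known targets and stand far apart in level here. Capitals mark the seed, bases 2 to 8, and the sequences are RefSeq entries of GRCh38.p14 written 5′ to 3′. The first 2 share the seed AACACUG and the other 3 share AAUACUG.
hsa-miR-200a-3p: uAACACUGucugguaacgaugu
hsa-miR-141-3p: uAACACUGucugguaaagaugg
hsa-miR-200b-3p: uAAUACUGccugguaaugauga
hsa-miR-200c-3p: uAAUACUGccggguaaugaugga
hsa-miR-429: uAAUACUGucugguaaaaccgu

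Matches to both seeds, CAGTGTT and CAGTATT, were searched on the sense strand of the longest annotated 3′ UTR of each gene in GENCODE release 29. ZEB1 held 9 matches in 2549 bases, or 3.53 per kb, and ZEB2 held 9 in 5370 bases, or 1.68 per kb. Of 10122 genes with a 3′ UTR of at least 1000 bases, 46.5% held a match, 0.0198% held as many per kb as ZEB1 and 0.751% as many as ZEB2. SNAI2 and CDH11 held 1 match each, and SNAI1, TWIST1, TWIST2, VIM, CDH1 and CDH2 held none. A match is a description of the sequence and not a measured site. The first CAGTATT match of each ZEB gene, with the bases around it, is given here with the match in capitals. It lies on the plus strand at chr10:31527619-31527640 in ZEB1 and on the minus strand at chr2:144389052-144389073 in ZEB2 (GRCh38).
ZEB1: ttgttttatcttatCAGTATTa
ZEB2: gcactaccatacatCAGTATTt

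The hairpin genes MIR200A, MIR200B, MIR429, MIR200C and MIR141 and the host transcript MIR200CHG were listed at 0 in both libraries. The library kit selects polyadenylated transcripts, so these rows do not measure mature microRNAs.

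Levels are per-million units, obtained by taking 1 from 2 raised to the deposited log2 value. The header calls the values only normalized, and the scale was inferred from their sums of 983638 in the SCC and 984120 in the non-SCC library. Over 75 ribosomal protein genes of 359 to 2317 bases in transcript length, the log2 level changed by -0.06 per log2 unit of length in the SCC and by -0.11 in the non-SCC library, where counts not divided by length would be expected to give a slope near 1. Levels of different genes are therefore set side by side as levels per length, with that limit. The read depth was unknown and no counting interval could be had. A gene passed the filter when it had at least 1 unit in at least 1 library, as 13444 genes did. A log2 ratio is the SCC minus the non-SCC log2(units + 1), a scale that understates the difference of low genes.

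Of the 10 genes, 7 passed the filter and 3, TWIST2, CDH1 and CDH2, were listed at 0 in both libraries. All 7 had a higher value in the SCC library, with log2 ratios of 0.05 to 1.20 and a median of 0.26, while 56.2% of all genes that passed had a ratio above 0 and their median was 0.03. At least 1.5-fold higher was 1 of the 7, SNAI2, against 5.38% of all genes, and at least 1.5-fold lower was none, against 1.41%. SNAI2 passed the filter through the SCC library alone, so the filter favoured a high ratio there, and with a filter of 5 units none of the 10 was at 1.5-fold. SNAI1 and VIM had the next highest ratios. Immediate early genes such as FOS and EGR1, listed as genes of the handling response, moved the same way, with a median of 0.90. Whether their values reflect handling was not tested, nor was their part in the ratios of the 7 genes. In bulk libraries, a larger share of cells that express a gene and more of its RNA per cell cannot be told apart.

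**Figure D1:**
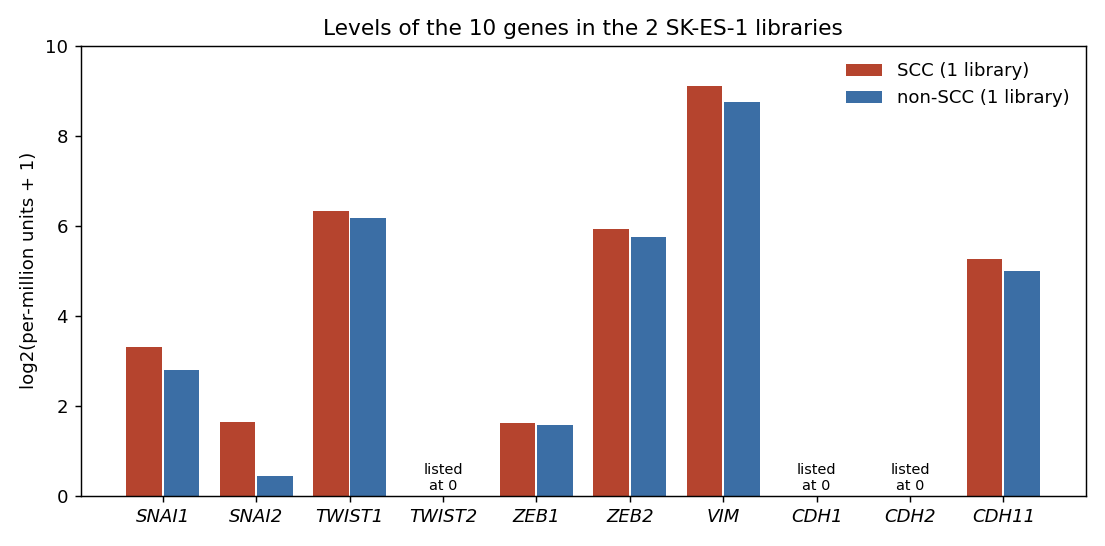
Levels of the 10 genes as log2(per-million units + 1), with 1 bar for the SCC and 1 for the non-SCC library and no error bars, since each group is 1 library. The bars of the 7 measured genes are higher in the SCC library, from VIM at 9.12 in SCCs and 8.76 in non-SCCs down to ZEB1 at 1.61 in SCCs and 1.56 in non-SCCs and SNAI2 at 1.63 in SCCs and 0.43 in non-SCCs, and TWIST2, CDH1 and CDH2 are listed at 0.

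Ratios moved with level in these libraries. Genes averaging 1 to 2 units had a median of 0.23, and those at 64 units or more had -0.06. Each gene is therefore also set against the genes whose mean log2 level lay within 0.5 of its own. VIM was above the 95th percentile of its like-level genes, and the other 6 lay between the 5th and the 95th, a range that the filter widened for SNAI2.

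**Figure D2:**
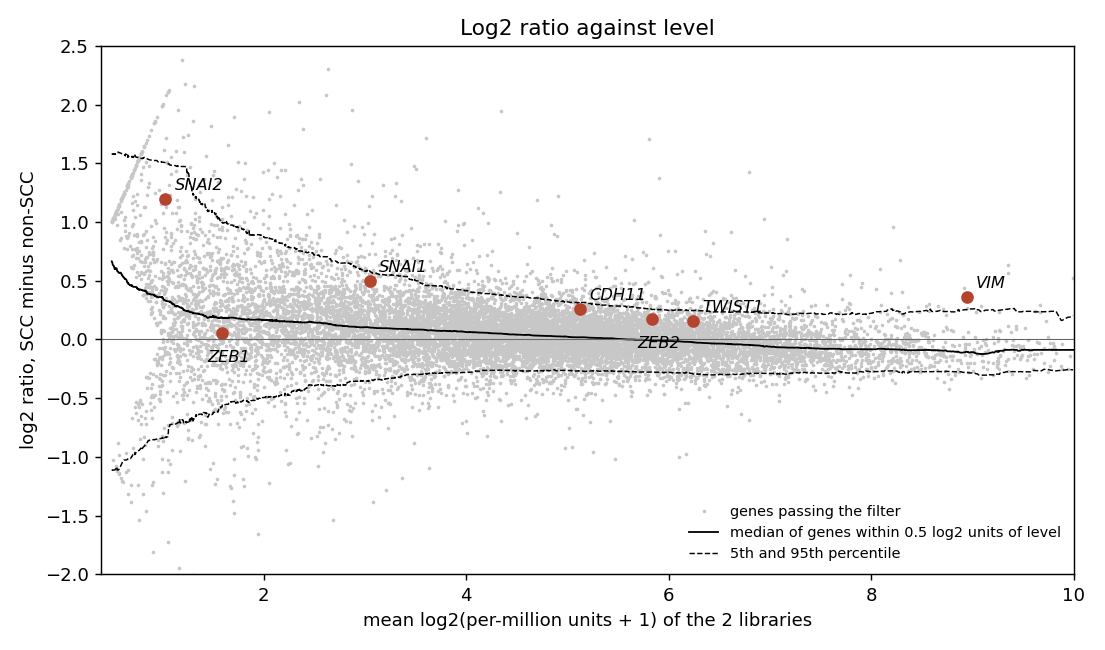
Log2 ratio, SCC minus non-SCC, on the vertical axis against the mean log2(per-million units + 1) of the 2 libraries, with grey points for genes that passed the filter and red points for the 7 measured genes. The solid line is the median and the dashed lines the 5th and 95th percentile of genes within 0.5 log2 units of level. VIM lies above the upper dashed line, at 0.36 against 0.25, and ZEB1 lies below the solid line.

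Among the transcription factors TWIST1 had the highest level. TWIST1, a basic helix-loop-helix factor of head mesenchyme and limb development, lies on chromosome 7 (19113047 to 19117636, GRCh38, minus strand), and its longest coding transcript has 2 exons. It was at 79.0 units in the SCC library and at 70.8 in the non-SCC library, a log2 ratio of 0.16. Its 1777 like-level genes had a median of -0.02 and a 5th to 95th percentile of -0.29 to 0.25, so TWIST1 was on the higher side of an ordinary spread. TWIST2, its close relative on chromosome 2 (238848085 to 238910534, plus strand), was listed at 0 in both libraries.

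ZEB2 came next in level. ZEB2, a large zinc finger and homeodomain repressor with known roles in the neural crest, lies on chromosome 2 (144384081 to 144520119, minus strand). It was at 59.7 units in the SCC library, against 52.7 in the non-SCC library, with a log2 ratio of 0.18 where its like-level genes had a median of -0.01 and a 95th percentile of 0.25. Its relative ZEB1, on chromosome 10 (31318417 to 31529804, plus strand), was at 2.06 units in the SCC and 1.96 in the non-SCC library. That log2 ratio of 0.05 was the smallest of the 7 and was below the median of its like-level genes, 0.18. The level of ZEB2 was 28.9 times that of ZEB1 in the SCC and 26.9 times in the non-SCC library. By these levels the ZEB transcripts were nearly all ZEB2 in both. The longest coding transcripts, of 6267 bases for ZEB1 and 9583 for ZEB2, are longer than any gene in the length check.

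SNAI1, a zinc finger repressor induced early in the transition, lies on chromosome 20 (49982980 to 49988886, plus strand). It was at 8.82 units in the SCC library and at 5.95 in the non-SCC library, a log2 ratio of 0.50 and a linear fold of 1.48. Its 1876 like-level genes ranged from -0.35 to 0.58 between the 5th and 95th percentile, and 7.57% of them had a ratio at least as high. SNAI1 was under the 1.5-fold threshold, a log2 ratio of 0.58, and near the upper edge of genes of its level.

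SNAI2, also called Slug, a repressor known from the neural crest, had the largest difference on the log scale. It lies on chromosome 8 (48917598 to 48921429, minus strand) and was at 2.10 units in the SCC library, against 0.350 in the non-SCC library. The log2 ratio was 1.20, and the linear fold 5.98. Both values were low. Its 1004 like-level genes that passed the filter had a 5th to 95th percentile of -0.83 to 1.51, and 11.2% had a ratio at least as high. Part of that spread comes from the filter, since a gene with both values under 1 unit does not pass. At the lowest levels only genes that differ between the libraries were counted, so the spread does not describe all genes of that level. The value of 0.350 is near the floor: of the genes above 0 in the non-SCC library, 91.4% were at 1 unit or more. Above 0 and under 1 unit lay 1219 genes, while 39541 were listed at 0. SNAI1 exceeded SNAI2 4.21-fold in the SCC and 17.0-fold in the non-SCC library. The 5 factor genes with a value above 0 together summed to 152 units in the SCC and 132 in the non-SCC library, of which TWIST1 and ZEB2 made up most.

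VIM encodes vimentin, the intermediate filament protein of mesenchymal cells, and was the most abundant of the 10 genes. It lies on chromosome 10 (17228241 to 17237593, plus strand) and its longest coding transcript has 10 exons. VIM was at 555 units in the SCC library and at 432 in the non-SCC library, a difference of 123 units and a linear fold of 1.28. By level it was the 199th gene of the SCC and the 269th of the non-SCC library. The log2 ratio of 0.36 was small beside that of SNAI2, but abundant genes varied little: the 185 like-level genes had a median of -0.11 and a 5th to 95th percentile of -0.28 to 0.25, and 2.16% had a ratio at least as high.

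Other intermediate filament genes were not uniformly higher. Of the 14 on the list beside VIM, 7 passed the filter, 3 with a ratio above 0 and 4 below, none of them at 1.5-fold, and the median was -0.13. The nuclear lamin LMNA was at 129 units in the SCC and 88.3 in the non-SCC library, a log2 ratio of 0.54, and the neuronal filament gene INA was at 13.3 units in the SCC and 9.29 in the non-SCC library. The B-type lamins were on the other side, with LMNB1 at 180 units in the SCC and 198 in the non-SCC library. Of the 15 filament genes with VIM, 6 were listed at 0 in both libraries, and VIM had the highest level of the 9 others in both. Of 9 genes whose proteins bind or regulate vimentin or its cell cortex, 8 passed the filter, with none at 1.5-fold and a median of 0.07.

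The promoters of VIM, ZEB2, ZEB1 and CDH2 are shown because E-boxes are the sites through which the factors above act. RefSeq windows of GRCh38.p14, from 250 bases before to 50 bases after a start site, were found for 5 of the 10 genes. Capitals mark E-boxes, CANNTG, which read the same on both strands as a class. The windows are chr10:17227991-17228290 on the plus strand for VIM, chr2:144520070-144520369 on the minus strand for ZEB2, chr10:31318966-31319265 on the plus strand for ZEB1 and chr18:28177081-28177380 on the minus strand for CDH2. The ZEB1 window is the one of its 7 windows with the most CAGGTG or CACCTG.
VIM: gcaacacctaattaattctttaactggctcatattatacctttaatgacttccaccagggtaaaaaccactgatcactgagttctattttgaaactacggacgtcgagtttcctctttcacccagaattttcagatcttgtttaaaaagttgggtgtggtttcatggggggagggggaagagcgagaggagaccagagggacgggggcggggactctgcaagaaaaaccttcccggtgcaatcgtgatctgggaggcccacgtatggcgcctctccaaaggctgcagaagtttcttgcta
ZEB2: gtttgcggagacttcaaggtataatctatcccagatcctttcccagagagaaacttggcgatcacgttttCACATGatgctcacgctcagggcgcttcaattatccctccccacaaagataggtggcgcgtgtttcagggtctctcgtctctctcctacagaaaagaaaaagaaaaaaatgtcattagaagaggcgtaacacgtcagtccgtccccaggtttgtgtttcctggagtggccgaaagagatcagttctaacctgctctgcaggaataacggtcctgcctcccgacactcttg
ZEB1: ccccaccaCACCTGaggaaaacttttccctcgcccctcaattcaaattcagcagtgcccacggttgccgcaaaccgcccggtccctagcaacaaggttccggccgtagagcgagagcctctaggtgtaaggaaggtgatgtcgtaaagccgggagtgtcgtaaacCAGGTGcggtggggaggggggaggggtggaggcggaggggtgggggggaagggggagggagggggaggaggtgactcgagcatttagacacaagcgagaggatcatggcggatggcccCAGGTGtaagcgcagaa
CDH2: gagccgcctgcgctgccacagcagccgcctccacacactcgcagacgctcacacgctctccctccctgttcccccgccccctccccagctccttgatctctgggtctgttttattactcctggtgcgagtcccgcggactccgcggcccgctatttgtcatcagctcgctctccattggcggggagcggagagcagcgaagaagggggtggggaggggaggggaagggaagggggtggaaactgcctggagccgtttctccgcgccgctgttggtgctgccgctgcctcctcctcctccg

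The VIM and CDH2 windows shown, and that of TWIST2, held no E-box, a second CDH2 window, not shown, held 1, CAGATG, and the ZEB2 window held 1, CACATG. The ZEB1 window shown held 3, all of the form CAGGTG or its reverse complement CACCTG, and was picked for that. Of the 7 ZEB1 windows, 4 held an E-box and 2 held CAGGTG or CACCTG. Of 35116 windows of the same length, 68.7% held an E-box and 20.6% held CAGGTG or CACCTG. A match describes these letters only, and no factor binding was measured.

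CDH11 was the only one of the 3 cadherins among the 10 with a value above 0. CDH11, a type II cadherin of osteoblasts and mesenchyme, lies on chromosome 16 (64943753 to 65123744, minus strand). It was at 37.1 units in the SCC library and at 30.9 in the non-SCC library, a log2 ratio of 0.26. Of its 2770 like-level genes, 8.19% had a ratio at least as high, and their 5th to 95th percentile was -0.27 to 0.31. CDH1, the epithelial cadherin on chromosome 16 (68737292 to 68835537, plus strand), was listed at 0 in both libraries. CDH2, or N-cadherin, the cadherin of neural and mesenchymal cells on chromosome 18 (27932879 to 28177130, minus strand), was also listed at 0 in both. An exact 0 can be a failed estimate here: all 13 protein-coding genes of mitochondrial DNA and the abundant nuclear RNA MALAT1 were listed at 0 as well, so nothing further is read from the zeros of CDH1, CDH2 and TWIST2.

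The order of cadherin levels leaves out 13 of 23 genes, which have a 0 in both tables. Among the 10 with a value above 0, CDH11 had the highest level in both libraries. Of the 20 other cadherins, 8 passed the filter, 5 with a ratio above 0 and 3 below, with none at 1.5-fold and a median of 0.07. CDH24, a type II cadherin, came second in level at 15.7 units in the SCC and 17.4 in the non-SCC library. CDH8, a brain cadherin, was at 11.4 units in the SCC library, against 8.94 in the non-SCC library. CDH23, the cadherin of hair cell tip links, had the highest ratio of the 8, 0.53, at 8.91 units in the SCC and 5.86 in the non-SCC library. CDH3, the placental cadherin found in epithelia, had 3.96 units in the SCC and 4.23 in the non-SCC library.

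**Figure D3:**
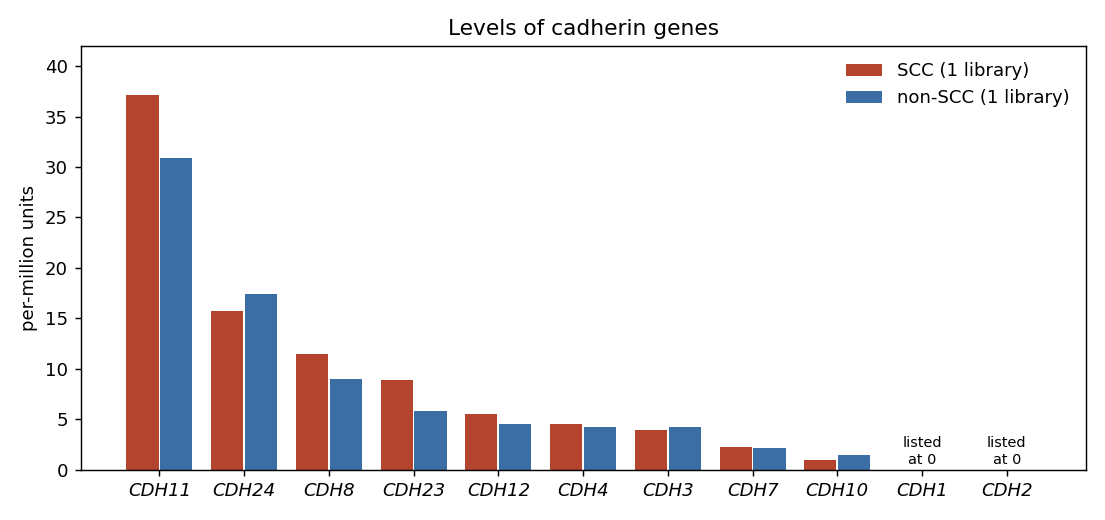
Levels of cadherin genes in per-million units on a linear axis, with 1 bar per library and no error bars, ordered by level in the SCC library. CDH11, at 37.1 units in the SCC and 30.9 in the non-SCC library, stands above CDH24 and CDH8, and CDH1 and CDH2 are listed at 0.

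The catenins and adaptors that anchor cadherins differed little. Of 16 genes, 11 passed the filter, 9 with a ratio above 0 and 2 below, with none at 1.5-fold and a median of 0.07. CTNNB1, beta-catenin, was at 124 units in the SCC and 119 in the non-SCC library, and CTNNA1, alpha-catenin, at 115 in both. CTNND1, p120-catenin, which holds cadherins at the membrane, had 46.6 units in the SCC library and 40.2 in the non-SCC library, a log2 ratio of 0.21.

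None of 14 factors that keep epithelial identity passed the filter, and 9 were listed at 0 in both libraries, which can be failed estimates from which no low level is read. Among those with a value above 0, the highest was the vesicle protein gene RAB25, at 0.799 units in the SCC library and listed at 0 in the non-SCC library. Of 28 epithelial structure genes, 16 had a 0 in both tables and 10 passed, 8 with a ratio above 0 and 2 below, with none at 1.5-fold and a median of 0.16. The tight junction gene CLDN1 had the highest level of the list, at 125 units in the SCC and 138 in the non-SCC library, while the adhesion gene EPCAM was at 1.37 in the SCC and 1.21 in the non-SCC library. The keratin gene KRT18 was at 15.3 units in the SCC and 17.1 in the non-SCC library.

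Mesenchymal structure genes had a median below that of the 7 measured genes, 0.26, and how far below depended on the setting. Of 30, 22 passed the filter, 15 with a ratio above 0 and 7 below, with a median of 0.20. At least 1.5-fold higher were 6, against 5.38% of all genes, and none was as much lower, against 1.41%. AXL and FBN1, 2 of the 6, passed the filter through the SCC library alone, and the count was 4 with a filter of 5 units or with the trend with level removed. The receptor kinase AXL was at 2.24 units in the SCC library and listed at 0 in the non-SCC library. FBN1, fibrillin, was at 1.77 units in the SCC and 0.180 in the non-SCC library, a log2 ratio of 1.23. Among better expressed genes, the secreted glycoprotein FSTL1 was at 48.4 units in SCCs and 28.6 in non-SCCs, a log2 ratio of 0.74. The matrix protein tenascin-C, TNC, stood at 5.93 units in the SCC and 3.30 in the non-SCC library, a ratio of 0.69. The other 2 of the 6 were LOX, with a log2 ratio of 0.65, and fibronectin, FN1, at 69.8 units in the SCC and 45.5 in the non-SCC library, with 0.61. With a filter of 5 units the list median was 0.13, against 0.26 for the measured genes left and 0.16 for epithelial structure genes. With the trend with level removed it was 0.21, against 0.24 for the 7 genes and 0.01 for epithelial structure genes.

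Other transition factors did not share a direction. Of 20, 12 passed the filter, 5 with a ratio above 0 and 7 below, with none at 1.5-fold and a median of -0.05. MSX1 had the highest ratio, 0.55, at 4.97 units in the SCC and 3.08 in the non-SCC library, and the mesenchymal homeobox gene PRRX1 was at 36.9 in the SCC and 28.7 in the non-SCC library, a ratio of 0.35. Its relative PRRX2 was lower, at 107 units in the SCC and 119 in the non-SCC library. SNAI3, the third SNAI gene, was listed at 0 in both libraries.

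Partners of the factors were abundant and mostly level between the libraries. Of 20 E proteins, ID genes and corepressors, 19 passed the filter, 10 with a ratio above 0 and 9 below, with a median of 0.01. ID1, whose product keeps basic helix-loop-helix proteins from DNA, was the 1 of the 19 at least 1.5-fold higher, against 5.38% of all genes. It was at 85.8 units in the SCC and 50.5 in the non-SCC library, a log2 ratio of 0.75. ID3 was on the other side, at 331 units in the SCC and 379 in the non-SCC library. The E proteins that pair with TWIST1 were at similar levels: TCF3 was at 230 units in the SCC and 228 in the non-SCC library, and TCF12 was at 89.3 in the SCC and 78.0 in the non-SCC library. KDM1A, the histone demethylase that SNAI1 recruits, was at 406 units in SCCs and 425 in non-SCCs.

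Genes that control the breakdown of SNAI and TWIST proteins leaned slightly higher. Of 14 found in the tables, 13 passed the filter, 12 with a ratio above 0 and 1 below, with none at 1.5-fold and a median of 0.13. GSK3B, the kinase that marks SNAI1 for degradation, had the highest ratio, 0.28, at 34.2 units in the SCC and 27.9 in the non-SCC library. FBXL14, a ubiquitin ligase subunit that acts on SNAI1, was at 20.2 units in SCCs and 17.5 in non-SCCs.

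Of 26 genes of the pathways that induce the transition, 23 passed the filter, 18 with a ratio above 0 and 5 below, with a median of 0.12. At least 1.5-fold higher were 2 of the 23, TGFB2 and EGF, against 5.38% of all genes. TGFB2, a TGF-beta ligand, was at 2.62 units in the SCC and 0.915 in the non-SCC library. EGF, a growth factor, was at 6.02 in the SCC and 3.65 in the non-SCC library. TGFB2 passed the filter through the SCC library alone. TGFB1 had 80.2 units in SCCs and 66.4 in non-SCCs, a log2 ratio of 0.27. TGFB3 had 18.9 units in SCCs and 22.0 in non-SCCs, a ratio of -0.21. The receptor TGFBR2 was near 1 unit in both libraries, at 0.845 in the SCC and 1.01 in the non-SCC library.

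**Figure D4:**
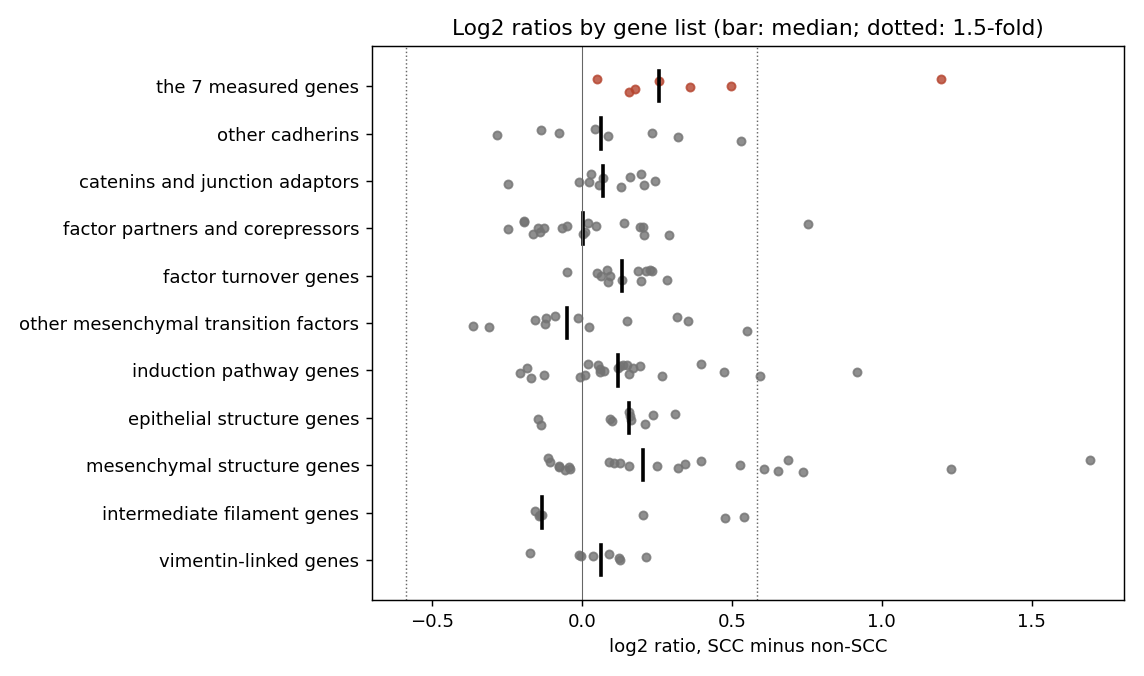
Log2 ratios, SCC minus non-SCC, of genes that passed the filter, 1 point per gene and 1 line per list, with the median as a bar and 1.5-fold as dotted lines. The 7 measured genes, in red, have a median of 0.26 and no point below 0, and the lists of other cadherins, other transition factors and partners have points on both sides of 0.

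Antisense genes overlap the start of VIM, ZEB1 and ZEB2. VIM-AS1, on chromosome 10 (17214239 to 17229985, minus strand), was at 1.15 units in the SCC and 1.94 in the non-SCC library, a log2 ratio of -0.45, opposite in sign to VIM. ZEB2-AS1 was at 1.51 units in SCCs and 1.93 in non-SCCs, a log2 ratio of -0.22, while ZEB2 was higher in the SCC library. ZEB1-AS1 was also lower in the SCC library, at 0.0822 units against 0.544 in non-SCCs, but did not pass the filter. ZEB1 itself had a ratio of 0.05, and of -0.13 with the trend with level removed, so no opposite direction is read there. VIM-AS1 and ZEB2-AS1 were low, at a level near that of ZEB1. The like-level genes of ZEB1 had a 5th percentile of -0.57, below the ratios of both. The kit was stranded, but whether reads were counted by strand is not given in the sources used here, so reads of a gene and its antisense partner may not be fully separated.

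The labelled cell type was checked against its markers. All 12 Ewing sarcoma markers passed the filter, with a median log2 ratio of 0.02, 7 with a ratio above 0 and 5 below. Among the lower ones were CD99 at 213 units in the SCC and 245 in the non-SCC library, NKX2-2 at 99.3 in SCCs and 111 in non-SCCs, and NR0B1 at 95.3 in SCCs and 118 in non-SCCs. Among the higher ones were BCL11B, at 112 units in SCCs and 97.0 in non-SCCs, and CCK, at 169 in SCCs and 149.9 in non-SCCs. Markers of fibroblasts and pericytes were partly higher: 6 of 10 passed, all 6 with a positive ratio, against 56.2% of all genes that passed. Past 1.5-fold were 2 of the 6, against 5.38% of all genes. This marker list summed to 224 units in the SCC and 207 in the non-SCC library. Of these, FAP was at 3.67 units in SCCs and 1.74 in non-SCCs and COL1A1 at 3.19 in SCCs and 1.15 in non-SCCs, while PDGFRA and PDPN were listed at 0 in both. Of 9 epithelial markers 3 passed, the list summed to 20.2 units in SCCs and 21.2 in non-SCCs, and KRT5, KRT14 and KRT19 were listed at 0. Of 7 endothelial markers only EMCN was above 0, at 11.2 units in SCCs and 8.62 in non-SCCs, with PECAM1, VWF and KDR at 0. Of 7 leukocyte markers 3 passed, all with a ratio above 0, and the list summed to 15.5 units in SCCs and 9.66 in non-SCCs, with PTPRC and CD3E at 0. Since an exact 0 can be a failed estimate here, no absence of a cell type is read from the zeros of these markers. All 8 immediate early genes, listed for the handling response, were higher in the SCC library, as were 56.2% of all genes that passed. Past 1.5-fold were 6 of the 8, against 5.38% of all genes. The median of the 8 was 0.90, and the list summed to 2411 units in SCCs and 1500 in non-SCCs. The 9 proliferation genes went both ways. The ratio was above 0 for 4 genes known from late in the cell cycle, TOP2A at 0.34, CDK1 at 0.21, CCNB1 at 0.19 and MKI67 at 0.18. It was below 0 for 5 known from its start and from DNA replication, CCNE2 at -0.37, MCM5 at -0.36, MCM6 at -0.35, PCNA at -0.24 and MCM2 at -0.13. The part of other cell types, of handling and of the cell cycle in the higher values of the 7 genes was not tested.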

How the data were processed

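RNA of SK-ES-1 cells was measured in 1 SCC and 1 non-SCC library. Per the labels' protocols, total RNA was extracted with Trizol and a TruSeq stranded kit for mRNA was used. The submitters' processing notes name the build hg38. No aligner, counting tool or annotation is given in the sources used here. The authors deposited 1 column of values per library, called normalized per the file headers, which was taken as log2 values of per-million units plus 1 from the numbers themselves: none was below 0, and the highest were 15.6 and 15.2. The column headers read LRC and non-LRC, which is not explained, and groups were taken from the sample each table was deposited for.

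Each table had 53826 lines. Lines of 1 gene ID with a locus suffix, 174 in all, were summed in linear units, leaving 53737 genes. The filter, the ratio and the 1.5-fold threshold are given with the results. No p-value was computed, and the depth was unknown. Functions were checked on simulated data. Coordinates came from RefSeq (GRCh38.p14), and transcripts, strands and 3′ UTRs from GENCODE release 29. Work was done in Python 3.11.15 with pandas 2.3.3 and numpy 2.4.6.

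The 10 genes, the lists and the thresholds were chosen with earlier results of these data known. Named genes are the 10, of each list the 4 members at 1.5-fold with the largest ratios, antisense neighbours and cell type markers. Other list members, LOX and FN1 among them, were named for their known role or as the highest or lowest of their list, after their values were seen. List genes were matched by Entrez gene ID through RefSeq symbols. Alternatives were upper quartile scaling, a median ratio set to 0, a filter of 5 units, no filter, pseudocounts of 0.1 and 0.5, protein-coding genes alone, and a lower fold threshold and one of 2-fold. Removal of the trend with level and leaving out genes at 0 in 1 library were added after seeing the data.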

Additional observations from a re-analysis of the deposited data

How the results depend on the processing

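No paired analysis was possible because each group has 1 library, and for the same reason no replicate could be left out. Over the alternatives run, the log2 ratio ranged from 0.33 to 0.47 for VIM, 0.40 to 0.56 for SNAI1, 0.12 to 0.20 for TWIST1, 0.14 to 0.21 for ZEB2 and 0.23 to 0.30 for CDH11. SNAI2 depended most on the scale: its ratio was 2.29 with a pseudocount of 0.1, 1.61 with 0.5 and 0.87 with the level trend removed, and with a filter of 5 units, which neither it nor ZEB1 passes, the count of the 10 genes at 1.5-fold was 0. ZEB1 was at -0.13 with the level trend removed, a turn in direction for a value that was not past 1.5-fold. At the lower fold threshold, 3 of the 10, SNAI1 and VIM besides SNAI2, were higher. The share of all genes at that threshold was not computed, so whether 3 is more than usual cannot be said. Of all genes that passed the filter, 11.5% had a ratio at least as high as that of VIM, the lowest of the 3. For SNAI1 this share was 6.99%.

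The difference ZEB2 minus ZEB1 in log2 level was 4.79 in the SCC and 4.68 in the non-SCC library with a pseudocount of 0.1, and 4.55 in SCCs and 4.44 in non-SCCs with 0.5. SNAI1 minus SNAI2 was 2.02 in SCCs and 3.75 in non-SCCs with a pseudocount of 0.1, and 2.92 in the non-SCC library with 0.5. The share of all genes at least 1.5-fold higher was 2.29% with a filter of 5 units and 3.12% with the trend removed. The share at least 1.5-fold lower was 0.628% with that filter, 2.31% with a pseudocount of 0.1, 2.46% with the trend removed and 0.6% among protein-coding genes alone. Inducers at 1.5-fold higher numbered 1 with the median set to 0, with the filter of 5 units and with the trend removed. Epithelial factors numbered 1 with no filter, other cadherins 1 with a pseudocount of 0.1, other transition factors 1 with a pseudocount of 0.1 or 0.5, and filament genes 1 with the trend removed. Non-coding transcripts at 1.5-fold lower numbered 1 with a pseudocount of 0.1 and with the trend removed. The causes were not tested. The unknown depth limits the low genes most, SNAI2 and ZEB1 among them.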

Other observations

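Of 11 antisense and microRNA host transcripts, 6 passed the filter, 3 with a ratio above 0 and 3 below, with a median log2 ratio of -0.08. MEG3, an imprinted non-coding RNA, was the 1 of the 6 at least 1.5-fold higher, against 5.38% of all genes. It was at 11.3 units in the SCC and 6.37 in the non-SCC library, a log2 ratio of 0.74. HOTAIR, a non-coding RNA of the HOXC cluster, was at 35.9 units in SCCs and 42.8 in non-SCCs, a ratio of -0.25. DNM3OS, the host of miR-199a and miR-214, was at 1.93 units in SCCs and 1.80 in non-SCCs.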
